A study of Rattus norvegicus with 8 samples.

Results

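Glucocorticoid hormones act on the hippocampus through receptors that are transcription factors, and the genes described here are 6 of their well-known targets together with both receptors. The targets are Sgk1 (NCBI GeneID 29517), Fkbp5 (361810), Tsc22d3 (83514), Pdk4 (89813), Zbtb16 (353227) and Klf9 (117560). The receptors are Nr3c1 (24413), the glucocorticoid receptor, and Nr3c2 (25672), the mineralocorticoid receptor. The 8 genes were chosen by name as targets and receptors of the hormone, with earlier results of these data known, and were found by their GeneID among 22601 genes. All 8 were listed in every library and all 8 passed the filter on low values that kept 15593 genes.

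Hippocampal RNA was sequenced from 8 wild-type Wistar rats of 180 to 220 g, 1 library per rat, in 3 groups. The 3 rats of the Con. group received saline injections and then gavage of the vehicle. The 3 rats of the PTZ group were injected with pentylenetetrazole, a blocker of GABA-A receptors, at 35 mg/kg every 48 h for 28 days (14 injections), received 60 mg/kg on the last day, and were then given the vehicle by gavage for 28 days. The 2 rats of the Q808 group had the same injections and then gavage of Q808, an anticonvulsant test compound, at 30 mg/kg for 28 days. Rats of the PTZ and Q808 groups were also injected with PTZ below the convulsive dose on the day after the last gavage and before decapitation, so that both differ from Con. by the repeated injections and by that last one. Ether was used in all groups at decapitation. The age and sex of the rats, the hour of decapitation and the plasma corticosterone were not given in the sources used here.

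The main rat glucocorticoid, corticosterone, is released from the adrenal cortex with a daily rhythm and after stress, seizures included. Nr3c2 binds it with high affinity and is known to be abundant in hippocampal neurons, while Nr3c1 has a lower affinity and is occupied mainly when the hormone is high. The bound receptors enter the nucleus and raise the transcription of genes such as Fkbp5, whose product is a co-chaperone that lowers the receptor's affinity and so closes a feedback loop.

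Expression was given as FPKM, fragments per kilobase of a transcript relative to all fragments mapped in the library. Tissue content differed between the rats of each group. On the scale of log2(FPKM + 0.1), 8 striatal marker genes, the dopamine receptors Drd1 and Drd2 among them, averaged 1.48 to 2.38 in 5 libraries. Their mean was 5.79 for Q808-1, 5.78 for PTZ-3 and 7.12 for Con.-3. The 5 libraries (Con.-1, Con.-2, PTZ-1, PTZ-2 and Q808-2) are called striatum-poor here and the other 3 striatum-rich. Every oligodendrocyte marker of the 8 listed was higher in each striatum-rich library than in any striatum-poor one. The summed FPKM of 6 dentate granule cell markers was 13.5 to 18.7 in the striatum-rich and 76.6 to 122 in the striatum-poor libraries, and that of 6 pyramidal cell markers was 37.7 to 128 against 215 to 277. In these lists, 3 of 6 dentate and 4 of 6 pyramidal markers were lower in every striatum-rich library than in any striatum-poor one. C1ql2, the largest part of the dentate sum in each striatum-poor library, was 50.6 to 96.7 FPKM there and 3.23 to 5.09 in the striatum-rich ones. The dentate marker Stxbp6 overlapped, with 5.69 to 10.5 in the striatum-rich and 9.93 to 16.8 in the striatum-poor libraries. Neurod6 was 7.29 to 24.7 against 60.8 to 130. Wfs1 held 16.0 to 86.2 against 93.0 to 132, while Spink8 was higher in the striatum-rich libraries (0.254 to 0.585 against 0 to 0.140). Markers of both lists were thus listed in all libraries, at lower sums in the striatum-rich ones, whose share of hippocampal tissue was not measured. In bulk tissue, fewer cells of a type and less RNA per cell cannot be told apart. Each comparison below is therefore given over all libraries of both groups and again within the striatum-poor ones, where Q808 is a lone library.

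The level of the 8 genes spanned a wide range. By the mean FPKM over the 8 libraries the order was Sgk1 (74.5), Klf9 (51.6), Tsc22d3 (34.4), Nr3c2 (19.7), Fkbp5 (19.1), Zbtb16 (14.1), Nr3c1 (13.6) and Pdk4 (11.7). The ranges over the libraries of every pair of neighbours in this order overlapped. Of these pairs only Klf9 and Tsc22d3 kept their order within each of the 8 libraries, with Klf9 higher. Pdk4 varied most between libraries, with a highest value 7.44 times the lowest, followed by Nr3c2 (6.94 times) and Zbtb16 (5.11 times). Nr3c1 (1.83 times) and Tsc22d3 (1.84 times) varied least.

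**Figure D1:**
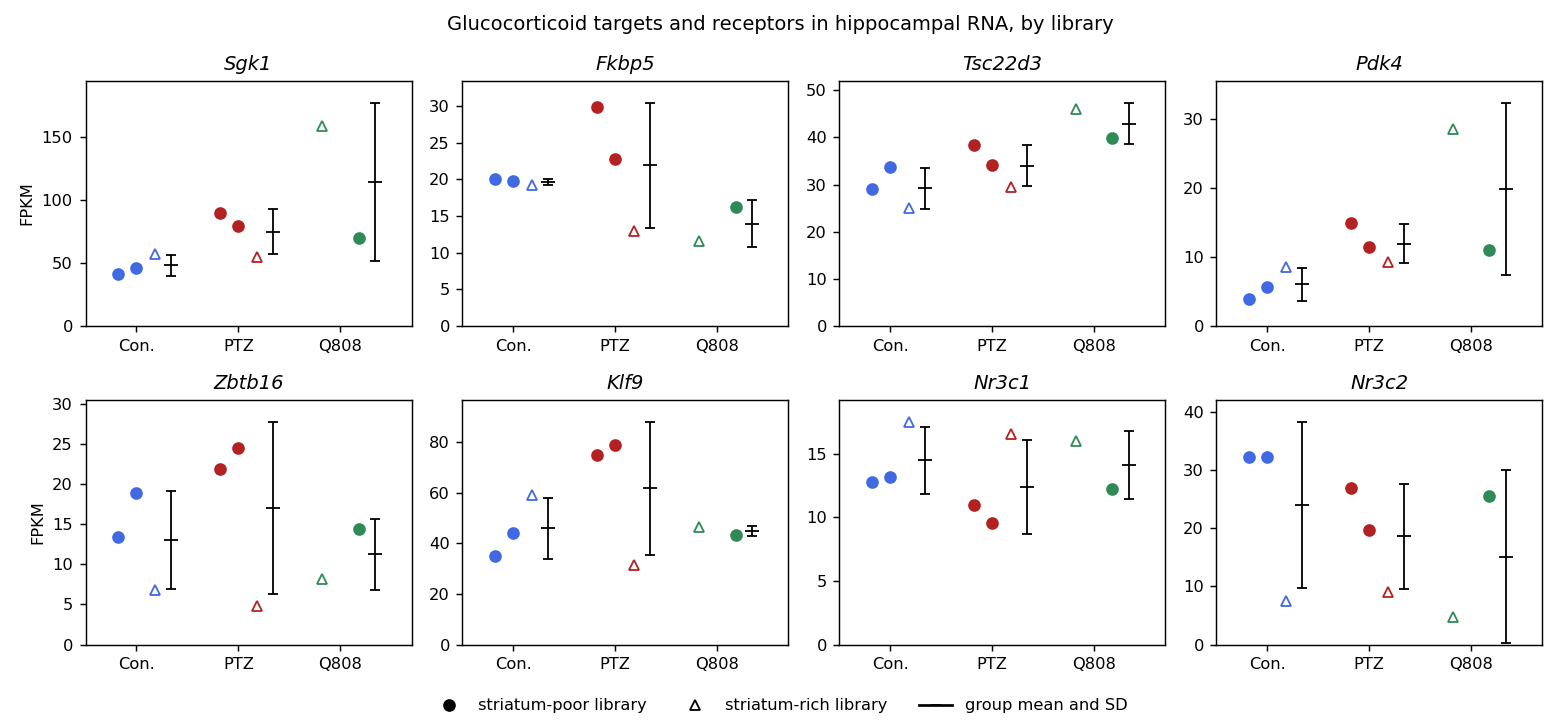
FPKM of the 8 genes in each library (vertical axes from 0, a scale for each gene). Filled circles are striatum-poor libraries, open triangles striatum-rich ones, and the bars give the mean and SD of 3 Con., 3 PTZ and 2 Q808 libraries. The open triangles lie below all filled circles for Zbtb16 and Nr3c2 and above them for Nr3c1, while Sgk1 and Pdk4 are highest in Q808-1.

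Sgk1 encodes a serine/threonine kinase that acts on ion channels and transporters. Its FPKM was 41.1, 45.9 and 57.2 in Con., 89.7, 79.4 and 55.0 in PTZ, and 158 and 69.5 in Q808. The lowest PTZ library lay below the highest Con. library, and both of these were striatum-rich, whereas both Q808 libraries lay above all of Con. Pdk4 encodes a kinase of mitochondria that inhibits pyruvate dehydrogenase and so spares glucose. Its FPKM was 3.84, 5.69 and 8.55 in Con., 14.9, 11.5 and 9.29 in PTZ, and 28.6 and 11.0 in Q808. Here the 3 Con. libraries lay below all the others, and Q808-1 held the highest value, as it did for Sgk1.

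The sequences around the start sites of 4 targets are shown. Sgk1 and Pdk4 had like profiles across libraries, Tsc22d3 a less close one and Klf9 a more distant one. Sgk1 and Tsc22d3 have 3 windows each in the table, and 1 that holds TATAAA is shown for each, the one farthest downstream. Each window runs from 250 bases before to 50 after a RefSeq start site in GRCr8, 5′ to 3′ on the strand of the gene, in lower case, with each TATAAA in capitals.
Sgk1, chr1:24804782-24805081, minus strand: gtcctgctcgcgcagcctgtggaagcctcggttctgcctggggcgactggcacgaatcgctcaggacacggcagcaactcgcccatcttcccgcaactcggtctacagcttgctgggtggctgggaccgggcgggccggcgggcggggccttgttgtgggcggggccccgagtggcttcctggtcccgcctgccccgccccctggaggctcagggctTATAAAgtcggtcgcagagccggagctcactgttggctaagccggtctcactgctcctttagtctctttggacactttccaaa
Pdk4, chr4:34568280-34568579, minus strand: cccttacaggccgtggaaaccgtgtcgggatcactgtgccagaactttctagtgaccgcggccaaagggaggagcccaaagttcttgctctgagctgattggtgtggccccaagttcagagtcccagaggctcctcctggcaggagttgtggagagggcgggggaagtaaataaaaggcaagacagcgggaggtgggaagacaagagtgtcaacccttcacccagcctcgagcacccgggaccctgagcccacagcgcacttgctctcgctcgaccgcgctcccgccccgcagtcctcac
Klf9, chr1:230126396-230126695, plus strand: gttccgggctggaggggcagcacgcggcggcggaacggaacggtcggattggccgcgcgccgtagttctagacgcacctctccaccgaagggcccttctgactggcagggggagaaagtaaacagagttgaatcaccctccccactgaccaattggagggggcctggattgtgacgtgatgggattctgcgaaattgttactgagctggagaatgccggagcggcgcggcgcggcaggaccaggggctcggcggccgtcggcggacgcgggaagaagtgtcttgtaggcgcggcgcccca
Tsc22d3, chrX:109009985-109010284, minus strand: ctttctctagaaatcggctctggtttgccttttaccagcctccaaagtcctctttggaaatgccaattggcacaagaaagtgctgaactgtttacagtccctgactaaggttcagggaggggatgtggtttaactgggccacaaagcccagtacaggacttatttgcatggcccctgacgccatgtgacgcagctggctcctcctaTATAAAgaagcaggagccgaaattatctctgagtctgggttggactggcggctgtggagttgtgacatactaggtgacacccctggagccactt

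The RefSeq table held 11 such windows for 6 of the 8 genes, and Zbtb16 and Nr3c2 had no entry. TATAAA, searched on both strands, stood in 3 of the 11 windows, 2 of Sgk1 and 1 of Tsc22d3, against 14.2% of all 33469 windows in the table and 7.8% of the 14038 windows of tested genes. In the windows shown it begins 33 bases before the start site of Sgk1 and 44 bases before that of Tsc22d3, while 1 of the 3 windows of Sgk1 and 2 of the 3 of Tsc22d3 lack it. The 6 letters TGTTCT, the right arm of the glucocorticoid response element, were in 0 of the 11 windows on either strand, against 20.7% of all windows and 13.2% of those of tested genes. The whole element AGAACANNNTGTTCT was likewise in 0 of the 11 and in 5 of all windows. TGACGTCA, the cyclic AMP response element, was in 0 of the 11 and in 1.83% of all windows, 2.82% of those of tested genes. These counts say only which letters stand within 300 bases. Glucocorticoid response elements are known to lie often at a distance from start sites.

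Fkbp5 gave 20.0, 19.8 and 19.2 FPKM in Con., 29.9, 22.8 and 13.0 in PTZ, and 11.6 and 16.2 in Q808. The Con. values were nearly equal (SD 0.425 around 19.7), the PTZ values lay on both sides of them, and both Q808 values lay below all of Con. Tsc22d3 encodes GILZ, a leucine zipper protein that mediates anti-inflammatory effects of glucocorticoids. It had 29.0, 33.6 and 25.0 FPKM in Con., 38.3, 34.2 and 29.5 in PTZ, and 46.0 and 39.9 in Q808. Both Q808 values lay above all other libraries.

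Klf9 encodes a zinc finger transcription factor, also induced by thyroid hormone, and Zbtb16 encodes the repressor PLZF. Klf9 had 34.9, 44.1 and 58.8 FPKM in Con., 75.0, 78.6 and 31.4 in PTZ, and 46.3 and 43.4 in Q808. PTZ-1 and PTZ-2 held the highest values of all libraries and PTZ-3 the lowest. Zbtb16 had 13.4, 18.9 and 6.78 FPKM in Con., 21.9, 24.5 and 4.79 in PTZ, and 8.13 and 14.4 in Q808. The 3 striatum-rich libraries (4.79 to 8.13) lay below the 5 striatum-poor ones (13.4 to 24.5).

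Of the receptors, Nr3c1 had 12.7, 13.1 and 17.5 FPKM in Con., 11.0, 9.57 and 16.5 in PTZ, and 16.0 and 12.2 in Q808. The 3 striatum-rich libraries held the highest values. Nr3c2 had 32.2, 32.2 and 7.55 FPKM in Con., 26.9, 19.7 and 9.07 in PTZ, and 4.64 and 25.6 in Q808, with the striatum-rich libraries lowest. The ratio of Nr3c2 to Nr3c1, both per length, was 2.06 to 2.53 in the striatum-poor libraries and 0.291 to 0.548 in the striatum-rich ones, so that the mineralocorticoid receptor transcript was the more abundant only in the striatum-poor libraries.

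**Figure D2:**
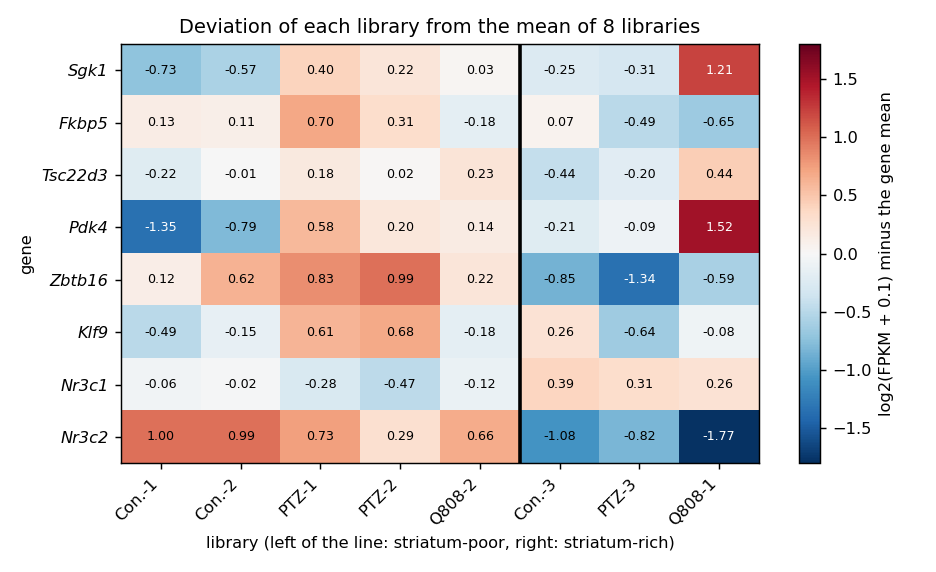
Each cell gives log2(FPKM + 0.1) of 1 gene in 1 library minus the mean of that gene over the 8 libraries, with striatum-poor libraries to the left of the line and striatum-rich ones to the right. The deviation of Pdk4 runs from -1.35 in Con.-1 to 1.52 in Q808-1 and that of Nr3c2 from -1.77 in Q808-1 to 1.00 in Con.-1.

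Differences were tested with limma on log2(FPKM + 0.1), each over all 15593 genes, and calls required an unadjusted p under 0.05 together with more than 1.5-fold change. A p-value adjusted over all tested genes (Benjamini-Hochberg) is given beside it. The 3 group comparisons share libraries in pairs, so their results are not independent of each other.

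PTZ injections were first compared with saline. Between PTZ and Con., 2 of the 8 genes rose, Pdk4 and Sgk1, and none fell. The background was 395 called genes, 2.53% of those tested, 1.69% higher and 0.84% lower, and 0 had an adjusted p under 0.05 while 589 had an unadjusted p under 0.05. Pdk4 was 11.9 ± 2.83 FPKM (SD, n = 3) in PTZ and 6.03 ± 2.37 (SD, n = 3) in Con. Its log2 fold change was 1.01 (SE 0.32), with a limma adjusted p of 0.999. Sgk1 was 74.7 ± 17.8 FPKM (SD, n = 3) against 48.1 ± 8.27 (SD, n = 3). Its log2 fold change was 0.62 (SE 0.22), with a limma adjusted p of 0.999.

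Neither call survived every removal of 1 library. Without PTZ-1, neither was called, with Pdk4 at 0.84 and Sgk1 at 0.47 on the log2 scale. The Sgk1 call was also lost without Con.-1 (0.51), Con.-2 (0.59) or PTZ-2 (0.56). Without PTZ-3 both remained called and Klf9 was called as well, at 0.77. For Pdk4 alone the 3 PTZ libraries all lay above the 3 Con. libraries, 1 gene of 8, against 9.15% of tested genes whose libraries were apart in either direction.

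The other 6 genes were not called between PTZ and Con. The log2 fold changes were 0.34 for Klf9 (95% interval -0.55 to 1.23), 0.22 for Tsc22d3 (-0.16 to 0.60), 0.20 for Zbtb16 (-1.37 to 1.76) and 0.07 for Fkbp5 (-0.60 to 0.75). For the receptors they were -0.25 for Nr3c1 (-0.82 to 0.32) and -0.23 for Nr3c2 (-1.74 to 1.27). The intervals of Zbtb16 and Nr3c2 are the widest, and for both genes the striatum-rich library of each group stands apart.

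Within the 4 striatum-poor libraries, PTZ-1 and PTZ-2 against Con.-1 and Con.-2, Sgk1, Klf9 and Pdk4 rose. Sgk1 had a log2 fold change of 0.95 (SE 0.11, 1.94-fold) and a limma adjusted p of 0.0332. Klf9 had 0.97 (SE 0.13, 1.95-fold) and an adjusted p of 0.0472. Pdk4 had 1.46 (SE 0.24, 2.76-fold) and an adjusted p of 0.069. These 3 of 8 calls stand beside a background of 9.81% of tested genes, 4.1% higher and 5.71% lower. All 3 genes remained called without any 1 of the 4 libraries. The adjusted values were less stable. With no filter on low values, or without limma's mean-variance trend, 0 of all tested genes had an adjusted p under 0.05 (smallest limma values 0.202 and 0.105).

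Another 4 genes had an unadjusted p under 0.05 in the striatum-poor libraries but changed by less than 1.5-fold. Their log2 fold changes were 0.54 for Zbtb16 (limma adjusted p = 0.209) and 0.39 for Fkbp5 (limma adjusted p = 0.239). The receptors had -0.48 for Nr3c2 (limma adjusted p = 0.203) and -0.34 for Nr3c1 (limma adjusted p = 0.235). Zbtb16 was called without Con.-2 (0.79) and Nr3c2 without PTZ-1 (-0.70). Tsc22d3 was at 0.21 (95% interval -0.08 to 0.50). All 8 genes had both PTZ libraries on 1 side of both Con. libraries, the 6 targets higher and both receptors lower. Of tested genes, 54.1% were apart in either direction, 2470 of 15593 higher and 5970 lower, so the receptors fell in the more common direction. Over all alternatives Nr3c1 ran from -0.43 to -0.21 and Nr3c2 from -0.70 to -0.26. The median log2 fold change was 0.46 over the 8 genes and -0.11 over all tested genes, and scaling by median ratios brought the latter to 0.01 and those of the 6 targets to between 0.33 and 1.58.

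The striatum-rich libraries gave other differences between PTZ-3 and Con.-3, 1 library each, with no test. Klf9 was lower by a log2 difference of -0.91, Fkbp5 by -0.56 and Zbtb16 by -0.49, while Sgk1 (-0.06) and Pdk4 (0.12) were near the median of all genes (0.11). Tsc22d3 was at 0.24, Nr3c1 at -0.08 and Nr3c2 at 0.26. The signs of Klf9, Fkbp5, Zbtb16, Sgk1 and Nr3c2 were thus opposite to those in the striatum-poor libraries. Whether the difference between both sets exceeds the spread between rats was not tested, since each striatum-rich value is from 1 rat.

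**Figure D3:**
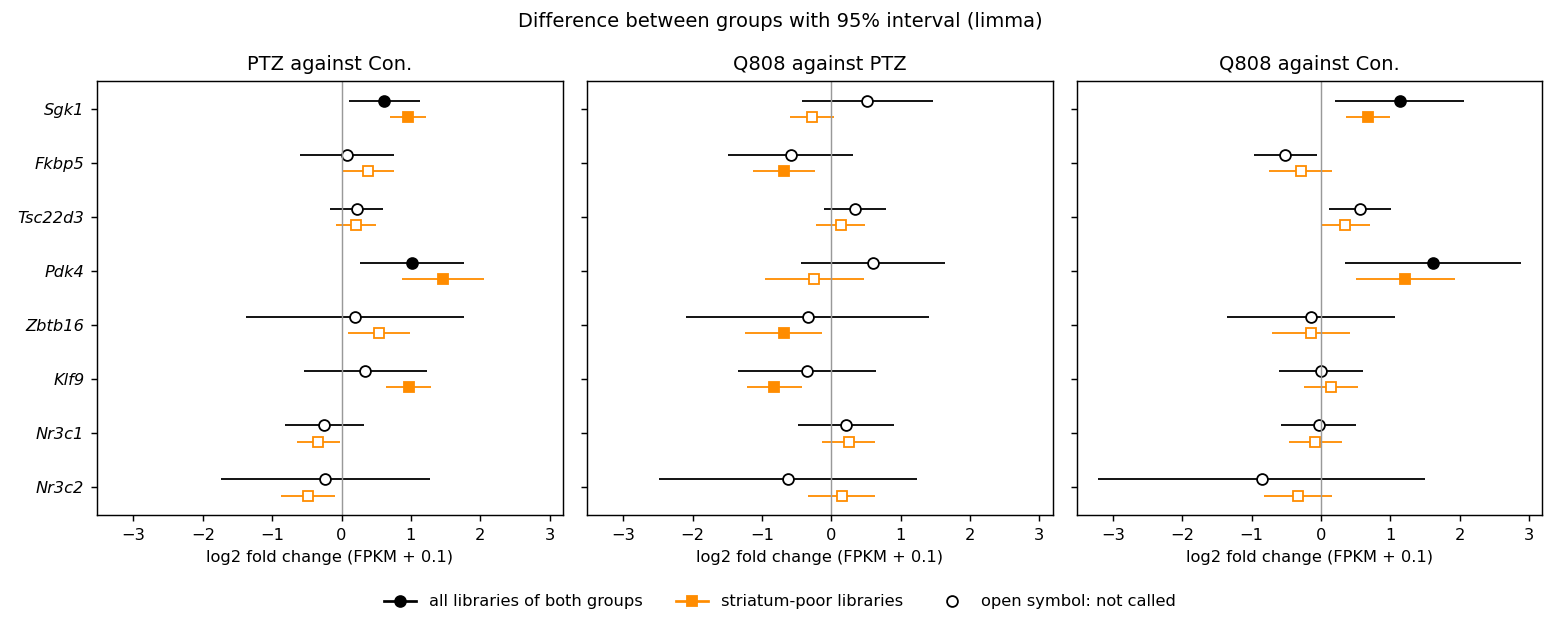
Log2 fold change of log2(FPKM + 0.1) for the 8 genes with its 95% interval, over all libraries of both groups (circles) and within the striatum-poor libraries (squares). Filled symbols are called genes. Klf9 changes from 0.34, not called, to 0.97, called, between circle and square for PTZ against Con., with a narrower interval.

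Activity genes moved with the same libraries. Of 6 immediate early genes (Fos, Arc, Egr1, Junb, Npas4 and Fosb), 5 were higher in both PTZ-1 and PTZ-2 than in Con.-1 and Con.-2. Among all 15593 tested genes, 2470 were higher in this way and 5970 were lower. The summed FPKM of the 6 genes was 98.8 to 333 in Con., 138 to 1030 in PTZ and 180 to 211 in Q808. PTZ-3 held the lowest PTZ sum and Con.-3 the highest Con. sum. Choroid plexus markers lay on the other side, with 5 of 6 lower in PTZ-1 and PTZ-2 than in Con.-1 and Con.-2. This is the direction in which more of the tested genes were apart. Otx2 was listed at 0 in every library and so could not be apart. The choroid plexus sums were 91.6 to 2529 in Con., 276 to 488 in PTZ and 162 to 6420 in Q808. The part of either in the results for Sgk1, Klf9 and Pdk4 was not tested.

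The question of the next comparison is what Q808 gavage changed in PTZ-injected rats. Between Q808 and PTZ, 0 of the 8 genes were called by limma and 0 had an unadjusted p under 0.05, beside a background of 1.92% of tested genes called, 1.36% higher and 0.564% lower. Sgk1 was 114 ± 62.6 FPKM (SD, n = 2) in Q808 and its log2 fold change was 0.52 (95% interval -0.42 to 1.46). That of Pdk4 was 0.60 (-0.44 to 1.64), with 19.8 ± 12.5 FPKM (SD, n = 2) in Q808. Both intervals include 0 as well as 1 on the log2 scale. The values were -0.59 for Fkbp5 (-1.49 to 0.31), -0.35 for Klf9 (-1.34 to 0.65), -0.34 for Zbtb16 (-2.09 to 1.41) and 0.34 for Tsc22d3 (-0.10 to 0.78). For the receptors they were 0.22 for Nr3c1 (-0.48 to 0.91) and -0.62 for Nr3c2 (-2.49 to 1.24).

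The count of calls changed with the library left out. Without PTZ-3, Fkbp5 (-0.92), Klf9 (-0.78) and Zbtb16 (-1.09) were called lower in Q808, 3 of 8. Without Q808-2, which leaves the striatum-rich Q808-1 as the only Q808 library and takes its spread from the PTZ libraries, Sgk1 (1.11) and Pdk4 (1.29) were called higher and Nr3c2 (-1.84) lower. Without Q808-1, 0 were called as before and Sgk1 and Pdk4 were at -0.07 and -0.09. Tsc22d3 was the only gene of the 8 with both Q808 libraries apart from all 3 PTZ libraries, where 15.6% of tested genes were apart.

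Within the striatum-poor libraries, the lone library Q808-2 was set against PTZ-1 and PTZ-2, and it was assumed to vary like the others. Klf9, Fkbp5 and Zbtb16 were lower in it, 3 of 8 genes called, and none was called higher. The background there was 10.4% of tested genes, 8.11% higher and 2.31% lower. Klf9 had a log2 fold change of -0.82 (SE 0.16, limma adjusted p = 0.125), Fkbp5 -0.68 (SE 0.18, adjusted p = 0.225) and Zbtb16 -0.69 (SE 0.22, adjusted p = 0.282). Only Klf9 remained called without PTZ-1, when Fkbp5 was at -0.49 and Zbtb16 at -0.76, and Zbtb16 (-0.61) also lost its call without PTZ-2. Sgk1 was at -0.28 (95% interval -0.60 to 0.04), Pdk4 at -0.25 (-0.96 to 0.46), Tsc22d3 at 0.14, Nr3c1 at 0.25 and Nr3c2 at 0.15.

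All tested genes had a median of 0.16 in that comparison, and median ratio scaling moved it to -0.01. With this scaling Klf9 was at -0.999, Fkbp5 at -0.86 and Zbtb16 at -0.86, all called, while Tsc22d3 (-0.04) and Nr3c2 (-0.03) turned sign. The share of called genes that were higher was 1265 of 1625 as deposited and 785 of 1347 after the scaling, and in PTZ against Con. of the striatum-poor libraries it was 639 of 1530 and 852 of 1420.

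In the striatum-rich libraries the difference between Q808-1 and PTZ-3 went the other way for 4 targets. Pdk4 was higher by 1.61 on the log2 scale, Sgk1 by 1.52, Zbtb16 by 0.75 and Klf9 by 0.56, beside a median of -0.06 over all genes. Tsc22d3 was higher by 0.64, Fkbp5 was at -0.16, Nr3c1 at -0.05 and Nr3c2 at -0.95. Each value compares 1 rat with 1 rat and was not tested.

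The Q808-1 library, where Sgk1 and Pdk4 reached 158 and 28.6 FPKM, also had the highest level of all 8 oligodendrocyte markers. Their summed FPKM was 13758 there, against 2681 to 6963 in Con., 3178 to 7054 in PTZ and 3432 in Q808-2, and none of these markers was listed at 0. The same library was highest for 5 of 6 endothelial markers, whose sums were 83.1 to 86.7 in Con., 67.8 to 159 in PTZ and 100 to 177 in Q808, and for 5 of 6 microglial markers, with sums of 103 to 121 in Con., 106 to 169 in PTZ and 135 to 253 in Q808. All 3 erythroid markers, Hbb among them, were highest in Q808-1 and higher in both Q808 libraries than in any Con. library. Among all 15593 tested genes, 2078 were higher in both Q808 libraries than in any Con. library. The erythroid sums were 101 to 214 in Con., 181 to 315 in PTZ and 671 to 691 in Q808. Con.-3 and PTZ-3 had higher oligodendrocyte sums (6963 and 7054) than any striatum-poor library. There Sgk1 was at 57.2 and 55.0 FPKM and Pdk4 at 8.55 and 9.29. For both genes Con.-3 was the highest Con. library and PTZ-3 the lowest PTZ library. The part of any of these cell types in the Sgk1 and Pdk4 values was not tested.

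Q808 was then compared with Con., which asks what remained different from saline rats. Pdk4 and Sgk1 rose, 2 of 8 genes, and none fell, beside 3.46% of tested genes called, 3.07% higher and 0.391% lower. Pdk4 had a log2 fold change of 1.61 (SE 0.51, 3.06-fold, limma adjusted p = 0.901) and Sgk1 one of 1.14 (SE 0.37, 2.20-fold, adjusted p = 0.901). Both calls were lost without Con.-1 (Pdk4 1.33, Sgk1 1.03), Con.-2 (1.61, 1.11) or Q808-1 (0.93, 0.54), and with Con.-2 out Tsc22d3 was called at 0.67. Without Q808-2, Pdk4 was at 2.30 and Sgk1 at 1.73, and Tsc22d3 (0.66) and Fkbp5 (-0.75) were called too.

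Tsc22d3 and Fkbp5 had an unadjusted p under 0.05 between Q808 and Con. and changed by less than 1.5-fold. Tsc22d3 was 42.9 ± 4.32 FPKM (SD, n = 2) in Q808 and 29.2 ± 4.31 (SD, n = 3) in Con., a log2 fold change of 0.56 (limma adjusted p = 0.901). Fkbp5 was 13.9 ± 3.22 FPKM (SD, n = 2) against 19.7 ± 0.425 (SD, n = 3), a log2 fold change of -0.51 (limma adjusted p = 0.901). The libraries of both groups were apart for 4 of the 8 genes (Sgk1, Pdk4 and Tsc22d3 higher, Fkbp5 lower), where 20% of tested genes were apart. Klf9 (0.00, 95% interval -0.61 to 0.60), Nr3c1 (-0.04, -0.58 to 0.51), Zbtb16 (-0.15, -1.36 to 1.06) and Nr3c2 (-0.86, -3.22 to 1.504) were not called.

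Within the striatum-poor libraries, Q808-2 exceeded Con.-1 and Con.-2 in Pdk4 and Sgk1, the 2 of 8 genes called, beside 4.53% of tested genes, 3.87% higher and 0.661% lower. Pdk4 had a log2 fold change of 1.21 (SE 0.29, limma adjusted p = 0.531) and Sgk1 0.68 (SE 0.13, adjusted p = 0.464). Both remained called without any 1 of the 4 Con. and PTZ libraries. Tsc22d3 was at 0.35 (95% interval -0.00 to 0.70) and Klf9 at 0.14 (95% interval -0.25 to 0.54), while Fkbp5 was at -0.30, Nr3c2 at -0.33, Zbtb16 at -0.15 and Nr3c1 at -0.08. In the striatum-rich libraries Q808-1 differed from Con.-3 by 1.73 in Pdk4, 1.46 in Sgk1, 0.88 in Tsc22d3, 0.26 in Zbtb16, -0.13 in Nr3c1, -0.35 in Klf9, -0.69 in Nr3c2 and -0.72 in Fkbp5, untested. Pdk4, Sgk1 and Tsc22d3 were thus above Con. in both sets of libraries, and Fkbp5, Nr3c1 and Nr3c2 below it.

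Other genes known to be induced by glucocorticoids were taken from a list of 24, all of them tested. Between PTZ and Con., 4 of 24 rose and none fell, beside 1.69% and 0.84% of all tested genes. They were Map3k6 (log2 fold change 1.69), Cdkn1a (1.30), Mt1 (1.27) and Nfkbia (0.67). Their median was 0.38, against -0.04 over all tested genes. Map3k6 encodes a stress-activated kinase, Cdkn1a the cell cycle inhibitor p21, Mt1 a metallothionein and Nfkbia the inhibitor IκBα of NF-κB. Leaving out 1 library at a time ended the calls of Nfkbia (0.51 to 0.99 over all removals, called only without PTZ-3), Mt1 (without Con.-2 or Con.-3, 1.20 and 1.26) and Cdkn1a (without PTZ-1 or PTZ-2, 1.11 and 0.98).

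Within the striatum-poor libraries 9 of 24 rose between Con. and PTZ and 2 fell, where 4.1% of all tested genes were called higher and 5.71% lower. Their median was 0.34, against -0.11 over all tested genes. Cdkn1a was 7.31 and 8.15 FPKM in Con.-2 and Con.-1 and 24.2 and 29.0 in PTZ-1 and PTZ-2. Its log2 fold change was 1.77, with a limma adjusted p of 0.0146, the only one of the 24 under 0.05. With no filter on low values or no mean-variance trend, 0 of all tested genes were under 0.05. The others that rose were Map3k6 (2.05), Mt1 (1.67), Hif3a (1.56), Errfi1 (1.47), Dusp1 (1.31), Per1 (1.30), Plin4 (1.02) and Nfkbia (1.01). Errfi1 encodes an inhibitor of the EGF receptor, Dusp1 a MAP kinase phosphatase and Per1 a clock protein, and these 3 are also known to be induced by neuronal activity. Pik3ip1 (-0.85) and Sult1a1 (-0.66) fell. The calls of Pik3ip1, Sult1a1, Mt1, Hif3a and Plin4 were lost without 1 library or more (Pik3ip1 -0.44 without PTZ-2, Sult1a1 -0.39 without PTZ-2, Mt1 1.52 without Con.-2, Hif3a 1.11 without Con.-1 and 1.23 without PTZ-1, Plin4 0.83 without PTZ-1). The remaining 13 were not called, Klf15 (0.21), Ddit4 (0.33) and Fam107a among them.

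**Figure D4:**
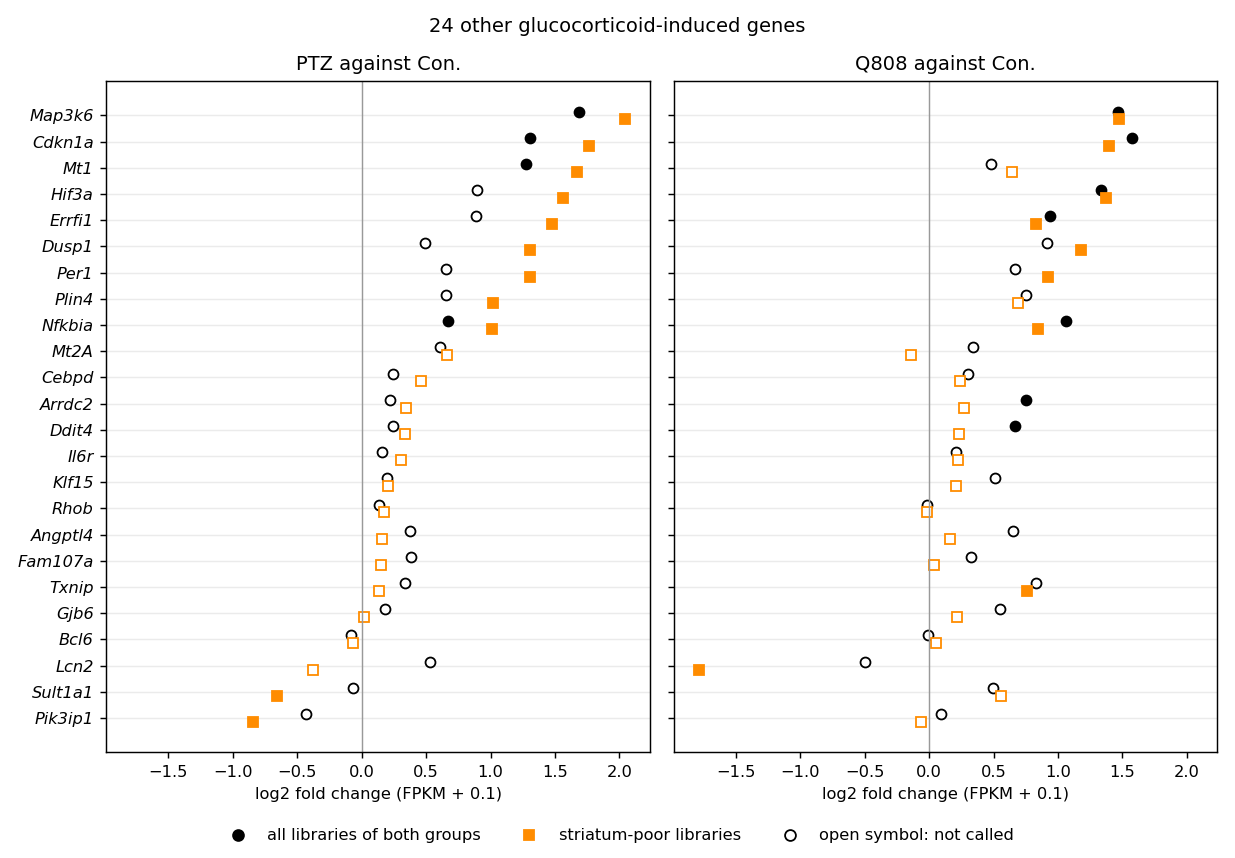
Log2 fold change of log2(FPKM + 0.1) of 24 other glucocorticoid-induced genes for PTZ and for Q808 against Con., over all libraries (circles) and within the striatum-poor libraries (squares). Filled symbols are called genes. In PTZ against Con., 4 circles and 11 squares are filled, and the squares run from 2.05 for Map3k6 to -0.85 for Pik3ip1.

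Between Q808 and PTZ 0 of the 24 were called by limma, and 0 had an unadjusted p under 0.05, beside 1.92% of all tested genes called. In the striatum-poor libraries 2 of 24 were called, Errfi1 lower (-0.65) and Sult1a1 higher (1.22). This is near the share of all tested genes called there, 10.4%, with 8.11% higher and 2.31% lower. The Errfi1 call was lost without PTZ-2 (-0.37) or either Con. library. Between Q808 and Con., 7 of 24 rose and none fell, beside 3.07% and 0.391% of all tested genes. They were Cdkn1a (1.57), Map3k6 (1.46), Hif3a (1.33), Nfkbia (1.06), Errfi1 (0.94), Arrdc2 (0.75) and Ddit4 (0.66). Arrdc2 and Ddit4, an inhibitor of mTOR signalling, were at 0.27 and 0.32 without Q808-1 and not called, and both lost the call without any Con. library as well. Hif3a lost its call without either Q808 library (1.21 without Q808-1, 1.45 without Q808-2). The median over the 24 was 0.60, against 0.04 over all tested genes.

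In the striatum-poor libraries 8 of 24 were higher in Q808-2 than in Con. and 1 was lower, where 3.87% of all tested genes were called higher and 0.661% lower. The median over the 24 was 0.25, against 0.05 over all tested genes. The called genes were Map3k6 (1.47), Cdkn1a (1.40), Hif3a (1.37), Dusp1 (1.18), Per1 (0.92), Nfkbia (0.84), Errfi1 (0.83) and Txnip (0.76), with Lcn2 lower (-1.79). Cdkn1a, Dusp1 and Nfkbia remained called without any 1 Con. or PTZ library. The call of Txnip was lost without Con.-2 (0.40), PTZ-1 or PTZ-2, that of Hif3a without Con.-1 (0.93), PTZ-1 or PTZ-2, that of Lcn2 (-1.94 to -1.64) and of Errfi1 (0.75 to 0.90) without either Con. library, and those of Map3k6 (1.24) and Per1 (0.78) without Con.-1. Over all alternatives, other scalings, filters and pseudocounts included, the Hif3a call was lost in 9 of 10, that of Txnip in 7 of 11 and that of Lcn2 in 5 of 11.

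The proteins that hold and assist the receptors showed no called transcript. Of 11 chaperones and co-chaperones, which keep the free receptor in a hormone-binding shape, 0 were called in any of the 6 comparisons. The shares of all tested genes called ran from 1.92% to 10.4%, so that 0 of 11 is near them. Fkbp4, the co-chaperone that competes with the product of Fkbp5, had a log2 fold change of -0.25 between PTZ and Con. and of -0.33 in the striatum-poor libraries, under 1.5-fold. In those libraries 1 of the 11 had an unadjusted p under 0.05 between PTZ and Con. and 1 between Q808 and PTZ (Hspa8, -0.44), and in the other 4 comparisons 0 did. Of 9 coregulators of the receptors, such as Ncoa1 and Ncor1, 0 were called by limma and 0 had an unadjusted p under 0.05 in any comparison. For so few genes 0 calls are near the same shares.

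Steroid metabolism and transport gave 4 tested genes of 6, since Hsd11b2 and Serpina6 were below the filter. Hsd11b1, the enzyme that regenerates active glucocorticoid in cells, had 12.3 to 43.6 FPKM in Con., 24.0 to 38.3 in PTZ and 29.6 to 39.7 in Q808, with a log2 fold change of 0.22 between PTZ and Con., not called. Abcb1a encodes the efflux pump P-glycoprotein, which keeps some steroids out of the brain. In the striatum-poor libraries it fell between Con. and PTZ (-0.68) and was higher in Q808-2 than in PTZ (0.87). Each is 1 of 4 tested genes, beside 9.81% and 10.4% of all tested genes called. The first of these calls was lost without Con.-2 (-0.63) or PTZ-2 (-0.50) and with either scaling (-0.56 by median ratios, -0.51 by quantiles). Its highest levels were in Q808-1 (17.0 FPKM) and PTZ-3 (14.7), which also had the highest sums of endothelial markers. The part of the endothelium in them was not tested.

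Hormones and receptors of the stress axis were low in FPKM except Crhbp (4.95 to 12.8 FPKM, called in no comparison), with 7 of 8 tested. Between PTZ and Con., Avp (log2 fold change 2.52), Pomc (1.34) and Crh (1.09) rose and Avpr1a, a vasopressin receptor, fell (-1.16). These 4 of 7 stand beside 2.53% of all tested genes, 1.69% higher and 0.84% lower. Avp, which encodes vasopressin, was 0.120 to 0.506 FPKM in Con., 0.844 to 3.03 in PTZ and 0.831 to 0.926 in Q808. Pomc, the precursor of ACTH, was 0.792 to 1.21 in Con., 1.85 to 2.86 in PTZ and 2.15 to 2.16 in Q808, and Crh, corticotropin-releasing hormone, 0.533 to 1.78, 2.01 to 2.61 and 1.22 to 2.55. The libraries of PTZ and Con. were apart for Avp, Pomc and Crh, 3 of 7, against 9.15% of tested genes in either direction. The Crh call was lost without any 1 library except Con.-2 and that of Avpr1a without Con.-1, Con.-2, PTZ-2 or PTZ-3, with values of 0.68 to 1.47 and -1.51 to -0.88 over all removals.

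Against Con., Q808 libraries had higher Avp (1.66), Pomc (1.15) and Crhr1 (0.75), 3 of 7, beside 3.46% of all tested genes called. The Avp call was lost without Con.-1, Con.-3 or either Q808 library (1.42 to 1.73), and that of Crhr1 without Con.-1, Con.-2 or Q808-1 (0.60 to 0.77). Within the striatum-poor libraries Avp (2.73) and Pomc (1.45) rose and Avpr1a fell (-1.43) between Con. and PTZ. These 3 of 7 stand beside 9.81% of all tested genes. The Avpr1a call was lost without Con.-1 (-1.24) or PTZ-2 (-0.94). In Q808-2, Crhr2 was higher than in PTZ (1.76) and Con. (1.73) and Pomc higher than in Con. (1.06, and 0.78 without Con.-1, not called). These were 1 of 7 genes against PTZ and 2 of 7 against Con., beside 10.4% and 4.53% of all tested genes. Crhr2 was 2.01 FPKM in Q808-2 and 2.03 in PTZ-3, and 0.306 to 0.673 in the other 6 libraries. The same Q808-2 library held the highest sum of choroid plexus markers, 6420 FPKM. That sum was 488 in PTZ-3, and 2529 and 2504 in Con.-1 and Con.-2, where Crhr2 was 0.525 and 0.545 FPKM. The part of the choroid plexus in Crhr2 was not tested.

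Relatives of the 8 genes by protein family were 12, all tested, and at most 1 of them was called in a comparison. The shares of all tested genes called were 3.46% between Q808 and Con., 4.53% between Q808-2 and the striatum-poor Con. libraries and 9.81% between PTZ and Con. of the striatum-poor libraries, so that 1 of 12 is near the last of these. Tsc22d4 rose between Con. and Q808 (1.51, and 1.14 without Q808-1, not called) and was higher in Q808-2 than in the striatum-poor Con. libraries (1.29, not called without either Con. library). Klf13 rose between Con. and PTZ in the striatum-poor libraries (0.71, and 0.35 without Con.-1, not called). The other relatives, Sgk2, Sgk3 and the kinases Pdk1, Pdk2 and Pdk3 among them, were called in none of the 6 comparisons.

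The genes whose profile over the 8 libraries was most like that of each target were found by the distance between standardized log2 profiles among 12562 other genes whose mean FPKM reached 1. For Sgk1 they were Fam43a (distance 0.533), Pdk4 (0.672) and Shc4 (0.766), and for Pdk4 they were Fam43a (0.431), Sgk1 (0.672) and Cited1 (0.840). Sgk1 and Pdk4 were thus each the second closest gene to the other. Tsc22d3 was closest to Atp1b2, Alad and Stk10 (0.883 to 0.956), Fkbp5 to Htr4, Skil and Bahd1 (0.781 to 0.873), Klf9 to Nploc4, Etv5 and Klhl3 (0.644 to 0.757) and Zbtb16 to Grem1, Mgrn1 and Itsn1 (0.397 to 0.533).

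The next smallest distances among the 8 genes were those of Sgk1 and Tsc22d3 (1.89), Zbtb16 and Nr3c2 (1.93) and Fkbp5 and Zbtb16 (2.00), and the greatest was that of Zbtb16 and Nr3c1 (5.55). These likenesses are a description over 8 libraries that share the division by striatal content. The 6 targets did not share 1 profile. Of them, Sgk1, Pdk4 and Tsc22d3 were highest in Q808-1, Klf9 and Zbtb16 in PTZ-2 and Fkbp5 in PTZ-1.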

How the data were processed

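RNA of the rat hippocampus was measured in 3 Con., 3 PTZ and 2 Q808 libraries, 1 per rat, grouped by the labels. The authors captured poly(A) RNA, sequenced it, trimmed the reads with Trimmomatic and deposited FPKM per gene from Cufflinks. The submitters' processing notes also name HISAT2, Bowtie2, StringTie, SAMtools, HTSeq and DESeq. Tool versions and the genome build are not given in the sources used here, and read counts and the study's depth figures were not used here, so no counting error is given and the spread between rats is the only error. FPKM are relative to the mapped fragments of a library, so a change in abundant transcripts can shift all others.

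Genes were matched by NCBI GeneID, with symbols for 20633 of 22601 genes and promoter windows from RefSeq tables of GRCr8. Genes whose mean FPKM reached 0.1, 15593 in all, were fitted on log2(FPKM + 0.1) with limma 3.58.1 (empirical Bayes with a mean-variance trend) in R 4.3.3. This scale understates changes of low genes. Each comparison was fitted on its own 2 groups, and Q808-2 against the striatum-poor libraries in a fit of all 5. A gene was called at an unadjusted two-sided p under 0.05 and more than 1.5-fold, and Benjamini-Hochberg adjustment ran over all tested genes. Figures and summaries used Python 3.11.15, pandas 2.3.3, numpy 2.4.6 and matplotlib 3.10.9. The limma step was tested on simulated data whose spread was set smaller than that observed between the rats. That test therefore does not give the power or the error rate of the fits above. Striatum-poor libraries lie below the largest gap in the mean of the striatal list.

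The members and the lists were chosen with earlier results of these data known. Named genes were the 8 members, list genes called in at least 1 comparison, and the 3 nearest profiles of each target, and single uncalled list genes were named after their values were seen. Con. and PTZ libraries of the same number deviated together from their group means (correlations across genes of 0.212, 0.299 and 0.422), although they come from different rats and Con.-2 with PTZ-1 gave 0.322. Q808-1 with PTZ-1 (-0.295) and with Con.-1 (-0.379) did not, while Q808-1 gave 0.428 with PTZ-3 and 0.606 with Con.-3. Whatever their numbers, pairs of libraries from different groups correlated positively where both were striatum-poor or both striatum-rich, and negatively otherwise. The 2 Q808 libraries deviate from their mean by equal and opposite amounts. The correlations of Q808-2 are thus fixed by those of Q808-1 and add nothing to this pattern. Alternatives were pseudocounts of 1 and 0.01, no filter, a filter at a mean FPKM of 1, 1 fit of all groups, no trend, quantile and median ratio scaling, a block for the replicate number, and each library left out.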

Additional observations from a re-analysis of the deposited data

How the results depend on the processing

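The FPKM carry no counting error and groups hold 2 or 3 rats, so a change that was not called may still exist. Within the striatum-poor libraries the calls of Sgk1 and Pdk4 against Con., in PTZ and in Q808-2, were made under every alternative run. So was that of Klf9 in PTZ. Those calls use the unadjusted p. Between PTZ and Con. there, 140 genes had a limma adjusted p under 0.05, and 0 did with no filter or with no trend. Over all libraries, called members between PTZ and Con. fell from 2 to 1 with 1 fit of all 3 groups and with quantile scaling, which both ended the Sgk1 call (0.62 and 0.58). No filter and no trend each ended the Zbtb16 call between Q808-2 and PTZ.

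With the replicate number as a block, the count of all called genes was 616 in place of 395 between PTZ and Con., 1894 in place of 300 between Q808 and PTZ, and 1076 in place of 540 between Q808 and Con. The block called 3 members in place of 0 between Q808 and PTZ (Fkbp5 -0.92, Klf9 -0.78, Zbtb16 -1.09), since it drops PTZ-3, which has no partner. It turned the uncalled values of Klf9 (0.19) and Nr3c1 (0.11) between Q808 and Con. positive and changed no other member's call. The numbers were not shown to pair Q808 libraries.

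A pseudocount of 1 left 219, 340 and 906 called genes between PTZ and Con., between Q808 and Con. and between PTZ and Con. of the striatum-poor libraries, where 1530 were called before. A mean FPKM of at least 1 left 193 between Q808 and PTZ. Quantile scaling put Klf9 at 0.0173 between Q808 and Con., and median ratio scaling put Nr3c2 and Tsc22d3 at -0.0272 and -0.0392 between Q808-2 and PTZ. After quantile scaling the higher and lower calls were 130 and 142 between Q808 and PTZ (212 and 88 before), 283 and 158 between Q808 and Con. (479 and 61), 794 and 530 between PTZ and Con. of the striatum-poor libraries (639 and 891) and 581 and 651 between Q808-2 and PTZ (1265 and 360).

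Leaving out 1 library gave 249 to 1135 called genes and 0 to 3 called members between PTZ and Con., 132 to 1569 and 0 to 3 between Q808 and PTZ, and 279 to 1799 and 0 to 4 between Q808 and Con. Within the striatum-poor libraries it gave 953 to 1989 and 3 to 4 between PTZ and Con., and 1133 to 2011 and 1 to 3 between Q808-2 and PTZ. Where a removal left 1 library in a group, it was assumed to vary like the other group. Signs of uncalled members turned in some of these fits. The ranges between PTZ and Con. were -0.19 to 0.41 for Fkbp5, -0.93 to 0.21 for Nr3c2 and -0.22 to 0.95 for Zbtb16. Between Q808 and PTZ they were -1.84 to 0.59 for Nr3c2, -0.0865 to 1.29 for Pdk4, -0.0734 to 1.11 for Sgk1 and -1.09 to 0.0719 for Zbtb16. Between Q808 and Con. they were -0.19 to 0.19 for Klf9, -0.23 to 0.16 for Nr3c1, -2.08 to 0.36 for Nr3c2 and -0.55 to 0.26 for Zbtb16. In the striatum-poor libraries they were -0.0722 to 0.37 for Nr3c2 between Q808-2 and PTZ, and -0.0250 to 0.31 for Klf9 and -0.40 to 0.10 for Zbtb16 between Q808-2 and Con. Q808-2 could not be left out of the striatum-poor comparisons, where it is the only Q808 library. Where no value above shows a cause, the cause was not tested.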
